A study of Mus musculus with 12 samples.

Results

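The mitochondrially encoded mRNAs are the messengers that mitochondria make from their own circular genome. They were taken as 10 rows of the count files by Entrez identifier, out of 27179 genes in the files, and all 10 had a symbol. ND1 (17716), ND2 (17717), ND3 (17718), ND4 (17719) and ND5 (17721) encode subunits of complex I, the NADH dehydrogenase. CYTB (17711) encodes the cytochrome b of complex III. COX1 (17708), COX2 (17709) and COX3 (17710) encode the core of complex IV, the cytochrome c oxidase, and ATP6 (17705) encodes a subunit of complex V, the ATP synthase. The annotation placed 5 further rows on the mitochondrial chromosome, which were the mRNAs ATP8, ND4L and ND6 and the ribosomal RNAs mt-Rnr1 and mt-Rnr2.

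The study asked how cultured neurons redistribute mRNA between the cell body and its projections when the proteasome is blocked. RNA was sequenced from somas and from neurites of primary mouse hippocampal neurons, which had been grown on porous membranes so that the projections could be harvested apart from the cell bodies. There were 4 groups of 3 libraries. Ctrl somas and Ctrl neurites came from vehicle-treated cultures, and MG132 somas and MG132 neurites from cultures given 10 μM MG132, a proteasome inhibitor, for 7 h. The labels gave the strain as C57BL/6, the methods of the study name FVB mice as well, and no allele or transgene was named. All 12 libraries were made from polyA-selected RNA. The cultures came from newborn pups (P0 or P1), were used at DIV17/18, and were not sorted, so other brain cell types could be present. No source used here said which cultures or animals each library came from, so p-values measure the spread between these libraries, which may be partly technical. In bulk RNA of this kind, fewer cells of a type and less RNA per cell cannot be told apart.

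Both strands of the mitochondrial genome are transcribed as long precursors, which are cut at the tRNAs that lie between the coding genes. Most of the released mRNAs have little untranslated sequence, and most receive a short polyA tail inside the mitochondrion, so polyA selection can capture those. Their products sit beside nuclear-encoded subunits in the respiratory complexes and in the ATP synthase, and neurons move whole mitochondria along their projections.

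The last bases of the coding sequences are shown because some of these genes end in an incomplete stop codon that the polyA tail completes, so that the tail selected here is also part of the message. Sequences are from GENCODE M21 (GRCm38), run 5′ to 3′ on the plus strand, and have the stop bases in capitals. ND4 (chrMT:10167-11544), CYTB (chrMT:14145-15288) and COX3 (chrMT:8607-9390) ended in a single T, and COX1 (chrMT:5328-6872) ended in a complete stop codon, as did the remaining 6 members.
ND4 end: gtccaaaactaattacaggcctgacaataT
CYTB end: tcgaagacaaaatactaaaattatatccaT
COX3 end: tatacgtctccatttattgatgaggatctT
COX1 end: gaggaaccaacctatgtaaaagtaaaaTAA

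Not every member could be measured. COX2 (chrMT:7013-7696), COX3 and ATP6 (chrMT:7927-8607) were listed at 0 counts in all 12 libraries, and ATP8 was as well. ND3 (chrMT:9459-9806) had 16 to 140 counts per library. COX1, CYTB, ND5, ND1, ND2 and ND4 had between 9163 and 485047 counts per library, and COX1 had the most of the members when the libraries were summed. COX2, COX3 and ATP6 lie beside COX1 on the same strand of the same chromosome. A floor of 3 counts corresponded to 0.135 to 0.706 CPM (counts relative to a fixed library total) in these libraries, and covers counting error only. The filter on low counts kept 7 members, so the tests below cover those 7, while COX2, COX3 and ATP6 have no test and no fold change.

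The unmeasured members shared their sequence with the nuclear genome. Fragments of the mitochondrial genome have been copied into nuclear chromosomes, and a read that matches both places equally well has no unique position. Each coding sequence was divided into every possible window of 75 bases, and each window was looked for in all annotated transcripts of nuclear genes. For COX2, 99.5% of windows were also present in a nuclear transcript. The share was 99.9% for COX3, 99.5% for ATP6 and 97.8% for ND3. It was 61.5% for ND4 and 39.8% for COX1, and then 5.71% for ND2 and 1.66% for ND5. No window of ND1 or CYTB was shared. The members listed at 0 or near 0 were the members with almost no window of their own. ATP8, also at 0, shared none of its 130 windows with an annotated transcript, but sequence outside annotated transcripts was not searched. How reads with several positions were handled was not stated beyond default settings, and its part in the zeros was not tested.

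**Figure D1:**
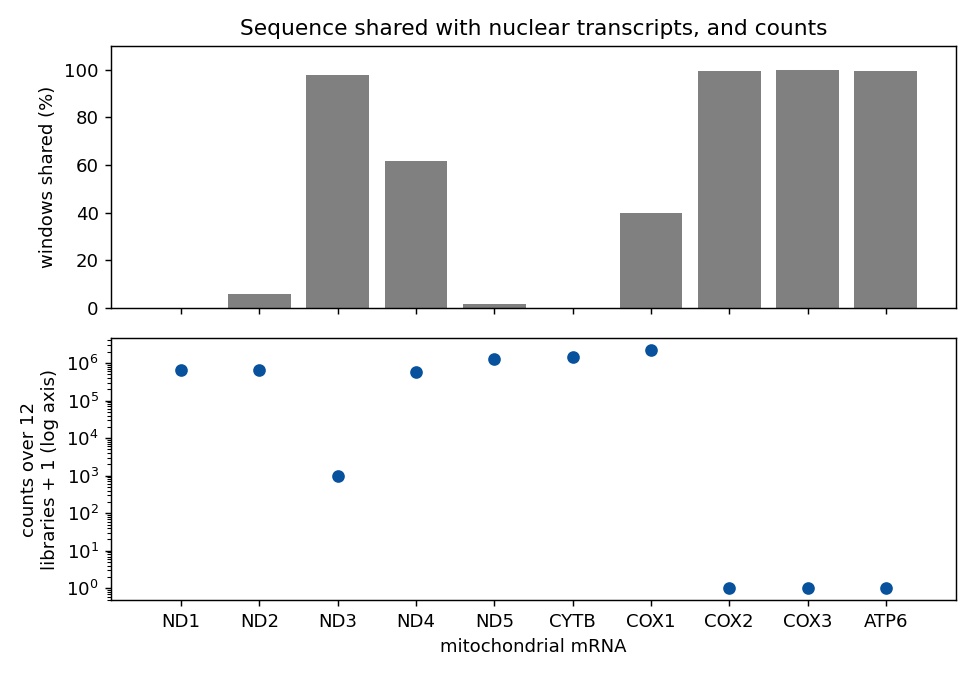
The upper panel plots, for each of the 10 members, the share of 75-base windows found in a nuclear transcript (%), and the lower panel the counts summed over 12 libraries plus 1 on a log axis. COX2, COX3 and ATP6, with 99.5, 99.9 and 99.5% of windows shared, lie at 0 counts, and ND3, with 97.8% shared, at 959.

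The copies lay in one stretch of chromosome 1 (chr1:24611535-24616197, GRCm38, minus strand), which held 7 annotated unprocessed pseudogenes in mitochondrial gene order, and 5 other genes with shared windows lay elsewhere. The copies of COX2 (Gm28661), COX3 (Gm28437) and ATP6 (Gm10925) differed from the mitochondrial sequence at 0 of 681, 783 and 678 bases. The ND4 copy (Gm28439) matched the first 876 bases of ND4 without a difference, and the COX1 copy (Gm29216) differed at 6 of 492 bases. None of the 12 nuclear genes had a row of its own in the count files by symbol. The first 30 bases of ND3 and of its copy are shown because they hold the single difference between them, T3C, counted from the first base of the coding sequence (ND3 base first, copy base last, in capitals). The starts of COX2, ATP6 and COX3 follow, with the start codon in capitals, since each is letter for letter the start of its copy as well.
ND3 start: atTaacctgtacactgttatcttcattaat
Gm28438 start: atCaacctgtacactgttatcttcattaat
COX2 start: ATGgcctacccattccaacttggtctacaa
ATP6 start: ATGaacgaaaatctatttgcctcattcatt
COX3 start: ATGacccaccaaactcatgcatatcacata

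Among the measured members, levels per kilobase of coding sequence spanned a wide range. The mean of the 12 libraries, in CPM of total counts per kilobase, was 12231 for COX1, 11256 for CYTB, 6136 for ND5, 5886 for ND1, 5287 for ND2, 3592 for ND4 and 25.6 for ND3. Within a library, COX1 stood above CYTB in 10 of 12 cases, CYTB above ND5 in 12 of 12, and ND5 above ND1 in only 6 of 12, so the levels of ND5 and ND1 per kilobase could not be put in an order. ND1 stood above ND2 in 10 of 12 libraries, ND2 above ND4 in 12 of 12, and ND4 above ND3 in 12 of 12. The place of ND4 depended on the length used. When only windows absent from nuclear transcripts were counted as length, an alternative added after seeing the data, ND4 moved from the sixth to the third place at 9861 per kilobase, behind COX1 at 21353 and CYTB at 12034. ND3 stayed lowest at 1486, a value that rests on 6 windows.

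The share of all counts taken by the members was larger in the neurite than in the soma library of each replicate number, but the groups overlapped. In Ctrl somas the share was 7.65, 3.90 and 3.60% in replicates 1, 2 and 3, and in Ctrl neurites it was 9.39, 6.70 and 8.14%. In MG132 somas it was 5.45, 2.61 and 3.91%, and in MG132 neurites 8.09, 6.79 and 4.63%. The neurite library was higher in 3 of 3 same-numbered pairs in Ctrl and in 3 of 3 in MG132, and the ranges of somas and neurites overlapped in both treatments. Without the most abundant gene in the total, MG132 shares were 3.40 to 6.34% in somas and 6.95 to 10.8% in neurites, without overlap. In Ctrl the ranges still overlapped, at 4.80 to 8.73% in somas and 8.49 to 12.4% in neurites. Means were 5.05% ± 2.25 and 8.08% ± 1.34 (SD, n = 3) in Ctrl somas and neurites, a ratio of 1.60, and 3.99% ± 1.42 and 6.50% ± 1.75 (SD, n = 3) in MG132, a ratio of 1.63. MG132 over Ctrl gave 0.790 in somas and 0.805 in neurites, with 1 of 3 pairs higher in each and overlapping ranges. None of these 4 differences passed a two-sided exact permutation test, which was added after seeing the data, with p = 0.2 and 0.2 for neurites against somas in Ctrl and MG132 (adjusted over the 4, 0.4 in each), and 0.7 and 0.4 for MG132 against Ctrl in somas and neurites (adjusted 0.7 and 0.533). The test took the libraries as unpaired, and the smallest p that it can give for 3 against 3 libraries is 0.1.

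**Figure D2:**
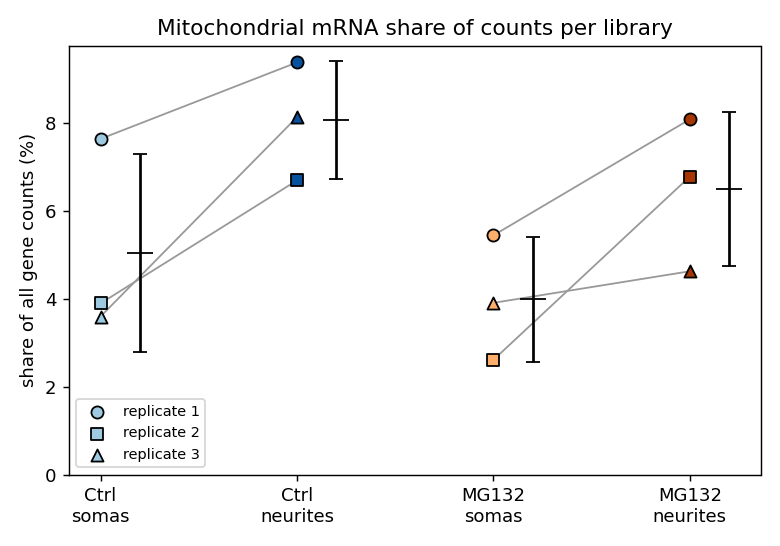
The share of all gene counts taken by the 10 members (%) is plotted for each library by group, with lines joining libraries of the same replicate number and bars giving the mean ± SD (n = 3). All 6 lines rise from somas to neurites, while the soma and neurite ranges overlap.

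Scaled for library composition, 3 of the 5 mRNAs of complex I were called higher in neurites in Ctrl (ND2, ND4 and ND5) and all 5 in MG132. Of all tested genes, 10.2% were called higher in Ctrl and 11.4% in MG132. Levels below are CPM scaled by TMM (trimmed mean of M-values), given for replicates 1, 2 and 3, and each difference is an edgeR log2 fold change, with p adjusted by Benjamini-Hochberg over the 14185 genes that passed the filter. ND4 was at 4170, 2269 and 2264 in Ctrl somas, 12718, 6550 and 7446 in Ctrl neurites, 3281, 1815 and 2279 in MG132 somas and 10574, 6243 and 6443 in MG132 neurites. Every neurite library stood above every soma library of the same treatment. ND4 rose in neurites by 1.62 ± 0.34 (SE, adjusted p = 0.00490) in Ctrl and by 1.66 ± 0.34 (SE, adjusted p = 0.00380) in MG132. ND5 was at 10077, 5554 and 5737 in Ctrl somas, 26822, 13858 and 17907 in Ctrl neurites, 7627, 3971 and 5206 in MG132 somas and 22808, 12957 and 15820 in MG132 neurites. The groups were again apart in both treatments, and ND5 rose by 1.46 ± 0.35 (SE, adjusted p = 0.0105) in Ctrl and 1.62 ± 0.35 (SE, adjusted p = 0.00491) in MG132.

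ND2 was at 5340, 3019 and 2915 in Ctrl somas, 12793, 6975 and 7593 in Ctrl neurites, 3818, 1975 and 2703 in MG132 somas and 11567, 6212 and 6984 in MG132 neurites. Neurites lay above somas without overlap, and ND2 rose by 1.28 ± 0.35 (SE, adjusted p = 0.0209) in Ctrl and 1.54 ± 0.35 (SE, adjusted p = 0.00655) in MG132. ND1, the first complex I gene on the chromosome, was at 5925, 3286 and 3134 in Ctrl somas, 13432, 6413 and 7480 in Ctrl neurites, 4147, 2146 and 3061 in MG132 somas and 11702, 5379 and 7186 in MG132 neurites. Its groups did not overlap either, and it rose in MG132 by 1.38 ± 0.37 (SE, adjusted p = 0.0191), while the Ctrl difference of 1.15 ± 0.37 (SE, adjusted p = 0.0511) fell just short of the threshold. ND3, counted only in its few reads, was at 5.38, 4.43 and 12.6 in Ctrl somas, 19.3, 10.4 and 23.5 in Ctrl neurites, 2.40, 3.17 and 4.63 in MG132 somas and 13.2, 6.14 and 12.8 in MG132 neurites. The Ctrl groups overlapped and gave 1.25 ± 0.46 (SE, adjusted p = 0.0864), and in MG132 ND3 rose by 1.60 ± 0.48 (SE, adjusted p = 0.0312).

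CYTB, the only mitochondrially encoded subunit of complex III, was at 12052, 6434 and 6459 in Ctrl somas, 32820, 15668 and 18669 in Ctrl neurites, 8822, 4732 and 6012 in MG132 somas and 27151, 15239 and 16236 in MG132 neurites. All neurite libraries stood above the soma libraries of their treatment. CYTB rose in neurites by 1.43 ± 0.37 (SE, adjusted p = 0.0165) in Ctrl and by 1.58 ± 0.37 (SE, adjusted p = 0.00815) in MG132. COX1, the catalytic subunit of complex IV, was at 15454, 8805 and 10095 in Ctrl somas, 44067, 21329 and 33756 in Ctrl neurites, 12398, 7333 and 10229 in MG132 somas and 36887, 21905 and 28938 in MG132 neurites. Replicate 1 was the highest of its group in all 4 groups, and the neurite and soma libraries did not overlap. COX1 rose by 1.53 ± 0.34 (SE, adjusted p = 0.00627) in Ctrl, 2.89-fold, and by 1.55 ± 0.34 (SE, adjusted p = 0.00526) in MG132, 2.93-fold.

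**Figure D3:**
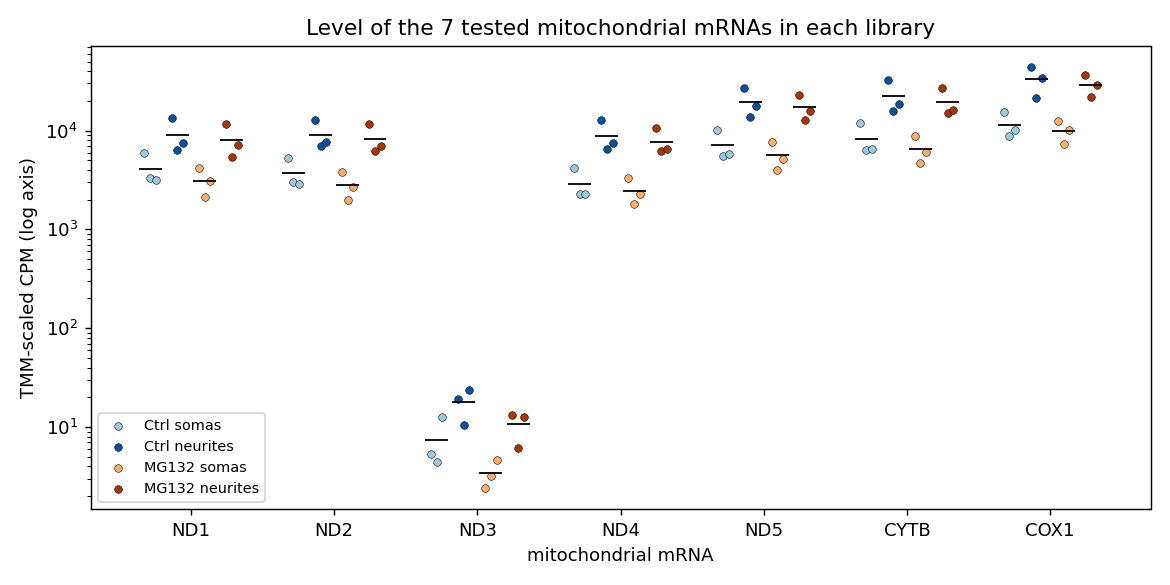
TMM-scaled CPM of the 7 tested members in each of the 12 libraries, on a log axis, with points coloured by group and lines at the group means (n = 3). Neurite points lie above soma points of the same treatment for every member except ND3 in Ctrl, whose groups overlap.

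In Ctrl, 5 of the 7 tested members were called higher in neurites and 0 lower, where 10.2% of all tested genes were called higher and 4.65% lower, and 6 of 7 had groups that did not overlap, against 17.8% of genes. In MG132, 7 of 7 were called higher, where 11.4% of genes were higher and 6.35% lower, and 7 of 7 did not overlap, against 18.9%. Both counts of members without overlap are on the TMM scale. Over the 12 libraries the members other than ND3 correlated with each other at Pearson r of 0.966 to 0.998. Their calls are therefore not independent of each other. The median log2 difference of the 7 members was 1.43 in Ctrl and 1.58 in MG132, beside -0.039 and -0.082 over all genes tested. Libraries of the same number deviated together, and with the replicate number as a block 7 of 7 members were called in Ctrl, where 23.0% of genes were in either direction, with ND1 at 1.13 (edgeR adjusted p = 4.00e-06) and ND3 at 1.30 (edgeR adjusted p = 0.00877). The count in Ctrl fell to 2 without Ctrl soma replicate 2, and to 3 without Ctrl soma replicate 3 or without Ctrl neurites replicate 1. The count in MG132 fell to 5 without MG132 soma replicate 2 or without MG132 neurites replicate 1. At an adjusted p under 0.01, 2 members were called higher in Ctrl, against 6.31% of genes, and 5 in MG132, against 7.2%. With a change over 1.7-fold added the counts were 2, against 6.15%, and 5, against 6.92%, and with a log2 change above 1.7 they were 0, against 2.12%, and 0, against 2.04%.

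The size of the difference depended on the scaling. On total counts, without TMM, the median of the members was 0.66 in Ctrl and 0.72 in MG132, all 7 members stayed positive, and 0 of 7 were called in either treatment, with smallest edgeR adjusted p of 0.0963 and 0.0892. The same change of scaling moved the median of all genes to -0.70 and -0.86. Relative to the median gene, the members stood 1.47 higher with TMM and 1.36 higher on total counts in Ctrl, and 1.67 and 1.58 higher in MG132. A change of scaling shifts all genes by nearly the same amount, so these values could hardly differ and do not test the rise. Over all genes in Ctrl, TMM gave 1452 higher and 659 lower calls, and total counts gave 324 and 2736. In MG132 the split was 1615 to 901 with TMM and 300 to 4336 on total counts. TMM factors were 1.18 to 1.44 in soma libraries and 0.567 to 0.999 in neurite libraries. The lack of overlap between neurites and somas also rested on TMM. On total counts the ranges overlapped for every tested member in both treatments, except ND4 in Ctrl. The share of all genes without overlap on total counts was not computed.

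Markers of other cell types moved with the same comparison. The summed CPM of 7 astrocyte markers was 4593 to 5673 in Ctrl somas and 20772 to 25720 in Ctrl neurites, and 2435 to 3155 and 9628 to 19692 in MG132 somas and neurites. In Ctrl 4 of the 7 were higher in neurites and 1 was lower, and in MG132 5 were higher and 1 lower. Beside these and the marker calls that follow, 10.2% of all genes were higher and 4.65% lower in Ctrl. In MG132 the shares were 11.4% and 6.35%. Gfap, the astrocyte filament protein, was at 1560 to 2550 in Ctrl somas and 15589 to 21576 in Ctrl neurites, while Gja1, the astrocyte gap junction protein, was lower in neurites by -1.08 ± 0.23 (SE) in Ctrl. The 7 oligodendrocyte lineage markers summed to 1415 to 6326 and 4892 to 21923 in Ctrl and 496 to 5943 and 2843 to 15947 in MG132, with 1 of 7 called in Ctrl and 0 in MG132. The 10 neuron markers summed to 1522 to 2432 and 1824 to 3992 in Ctrl and 1137 to 2087 and 1275 to 2953 in MG132, with Map2, a dendritic cytoskeleton protein, higher in neurites in both treatments (0.95 ± 0.26 and 1.02 ± 0.26, SE) and 1 marker lower in Ctrl and 2 in MG132. None of the neuron, astrocyte, oligodendrocyte or microglia markers was at 0 throughout a group. The 6 microglia markers summed to 504 to 618 and 507 to 999.6 in Ctrl, and to 124 to 217 and 76.6 to 170.3 in MG132, and of these Aif1 was higher in Ctrl neurites (2.29 ± 0.72, SE) and none was called in MG132. Of 3 endothelial markers Cldn5 was at 0 in 11 of 12 libraries, and the sum was at most 13.3. The nuclear RNAs Malat1 and Meg3 were lower in neurites in both treatments (2 of 2), with sums of 4727 to 6209 in Ctrl somas and 1614 to 3567 in Ctrl neurites. On total counts 2 astrocyte markers were higher and 2 lower in Ctrl neurites, and 6 of the neuron markers were lower, against 1 with TMM. On that scale 2.28% of all genes were higher and 19.3% lower. The part of these shifts in the mitochondrial difference was not tested.

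For MG132 against Ctrl, no member passed the test without the replicate block. In somas the 7 log2 differences ran from -1.10 for ND3 to -0.20 for COX1, and 0 of 7 were called, where 27.5% of all genes were called in either direction. ND3 alone had an unadjusted p under 0.05, where 38.7% of genes did (edgeR adjusted p = 0.0998). In neurites they ran from -0.74 for ND3 to -0.14 for ND2, and 0 of 7 were called, where 27% of genes were called, and 0 had an unadjusted p under 0.05, where 38.6% of genes did. Over all genes in neurites, TMM gave 2085 higher and 1738 lower calls and total counts 940 and 1336. DESeq2 called 0 of 7 in both, where it called 33.1% of all genes in somas and 32.5% in neurites. The Ctrl and MG132 libraries of every member overlapped in somas and in neurites, as the values above show. The same Ctrl libraries serve both this comparison and that of neurites with somas.

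For COX1 the 95% interval of the MG132 difference was -0.96 to 0.56 in somas and -0.94 to 0.59 in neurites, and for CYTB it was -1.19 to 0.49 and -1.03 to 0.64. These intervals leave out the replicate number, and with it as a block the interval for COX1 was -0.57 to 0.19 in somas and -0.53 to 0.23 in neurites. In the fit with the block, 3 of 7 members were called lower in MG132 somas, where 36.4% of all genes were called in either direction. ND1 was at -0.39 (edgeR adjusted p = 0.0435), ND2 at -0.40 (edgeR adjusted p = 0.0313) and ND3 at -1.08 (edgeR adjusted p = 0.0270), each lower in 3 of 3 pairs. CYTB and ND5 were also lower in 3 of 3 pairs but were not called (edgeR adjusted p = 0.0852 and 0.0692). These pairs are on the TMM scale. In the share of all counts, 1 of 3 soma pairs was higher in MG132. In neurites the block called 0 of 7, where 35.8% of all genes were called in either direction. Some astrocyte, oligodendrocyte lineage and microglia markers were also lower under MG132 in the fit without the block. In somas 5 of 7, 3 of 7 and 3 of 6 were called lower, where 11.9% of all genes were. In neurites 3 of 7, 3 of 7 and 5 of 6 were called lower, where 12.3% of all genes were. The part of these markers was not tested.

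Whether the neurite difference itself changed with MG132 was tested as an interaction. The 7 values lay between 0.021 ± 0.47 (SE) for COX1 and 0.35 ± 0.66 for ND3, and 0 of 7 were called by edgeR, with 0 at an unadjusted p under 0.05 and a lowest adjusted p of 0.965. Without the replicate block edgeR called no gene of the whole table in this contrast (0%), although 1000 had an unadjusted p under 0.05, 7.05% of those tested, and DESeq2 called 48 genes higher and 24 lower but none of the members. With the replicate block 47 genes were called higher and 43 lower, 0.634% of those tested, and again none of the members. The interval for COX1 was -1.06 to 1.10.

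**Figure D4:**
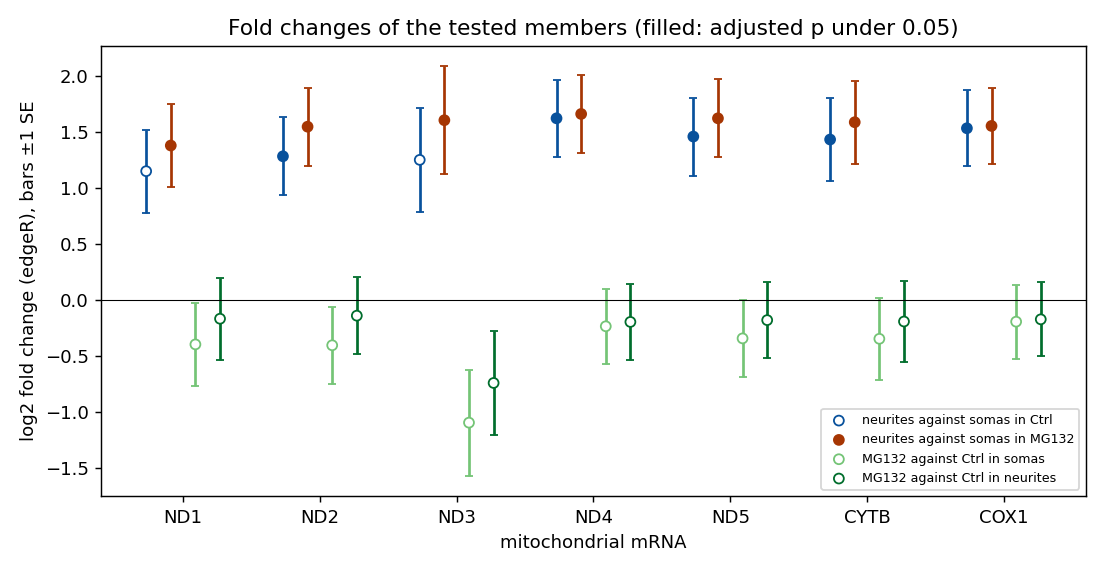
The edgeR log2 fold change ± 1 SE of the 7 tested members is plotted for the neurite and soma comparison of each treatment and for the MG132 and Ctrl comparison of each fraction, with filled points at an adjusted p under 0.05. The neurite differences lie between 1.15 and 1.66 and the MG132 differences between -1.10 and -0.14.

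Within their own sum, the measured members other than ND3 kept to narrow ranges. COX1 made up 29.1 to 36.3% of member counts over the 12 libraries, CYTB 19.9 to 23.0%, ND5 17.7 to 19.6% and ND2 8.18 to 10.3%. ND1 took 11.2, 11.2 and 10.2% in Ctrl somas, 9.41, 9.06 and 8.05% in Ctrl neurites, 10.3, 9.77 and 10.4% in MG132 somas and 9.70, 7.92 and 8.80% in MG132 neurites. Every neurite library was below every soma library of its treatment. ND4 took 7.87, 7.72 and 7.39% in Ctrl somas and 8.91, 9.25 and 8.02% in Ctrl neurites, where all neurite libraries were higher, and 8.18, 8.26 and 7.73% and 8.76, 9.19 and 7.89% in MG132, where the ranges overlapped. Shares of a single sum depend on each other. How many of all genes had groups without overlap on this scale was not computed, so these separations are descriptions only. With library size set to the summed member counts, edgeR called 0 of 7 members in every contrast, with 0 at an unadjusted p under 0.05 in each, while that scaling called 53.4% of all genes in the Ctrl and 60.8% in the MG132 comparison of neurites with somas, 7.31% and 6.08% in the MG132 comparisons within somas and neurites, and 0% in the interaction. The SE of ND1 in that fit, 0.34, was larger than its difference of -0.30, so the fit does not show that the members moved alike.

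**Figure D5:**
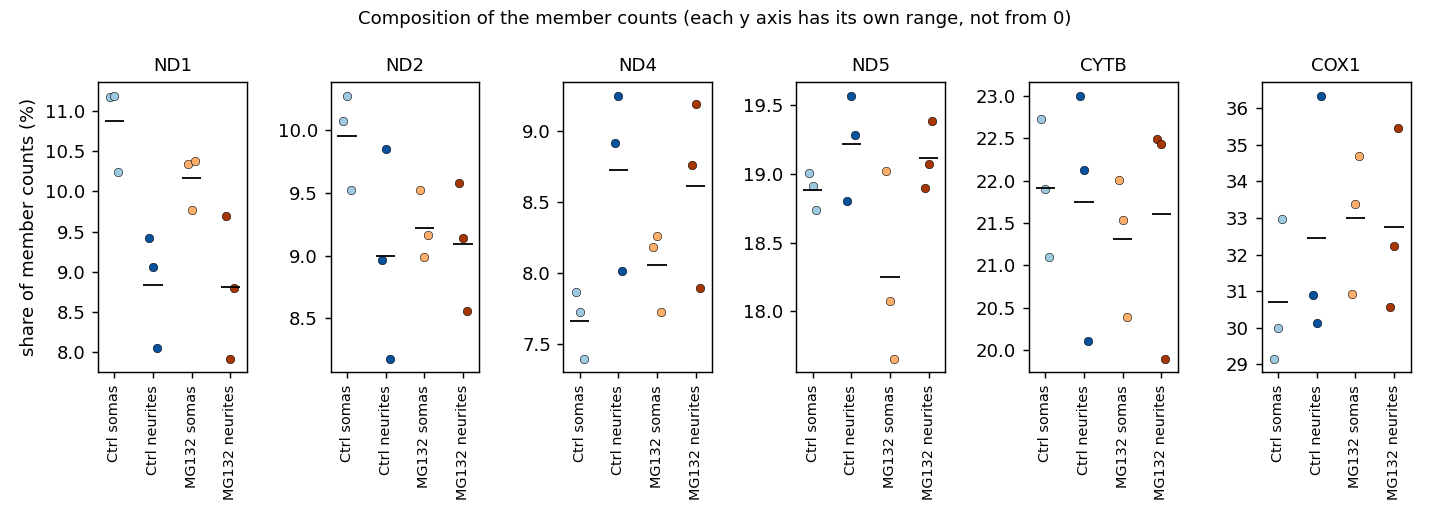
The share of the summed member counts (%) taken by 6 members is plotted per library and group, with lines at the group means (n = 3) and a separate axis range for each member. ND1 lies lower in neurites than in somas of the same treatment, and ND4 lies higher in Ctrl neurites than in Ctrl somas. With library size set to the summed member counts, edgeR called neither.

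The other rows of the mitochondrial chromosome behaved in different ways. ND6, the only mRNA encoded on the opposite strand, was at 3727, 2083 and 2156 in Ctrl somas, 9293, 5623 and 7180 in Ctrl neurites, 2651, 1561 and 1970 in MG132 somas and 8363, 5143 and 6022 in MG132 neurites TMM-scaled CPM. Its neurite libraries were all above the soma libraries of their treatment, and it rose by 1.47 ± 0.30 (SE, adjusted p = 0.00363) in Ctrl and 1.66 ± 0.30 (SE, adjusted p = 0.00146) in MG132 (edgeR). ND6 overlaps the end of ND5 (chrMT:13552-14070 against chrMT:11742-13565). Counting was at default settings, which in featureCounts do not use strand. Reads from the 2 strands therefore cannot be told apart anywhere in the ND6 row, and its values may hold both. The ratio of ND6 to ND5 counts was nearly constant, 0.346 to 0.406. ND4L had 0 to 13 counts per library, and 98.7% of its windows were shared with a chromosome 1 copy.

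The 2 mitochondrial ribosomal RNAs took 5.61 to 20.3% of all counts, although the libraries were polyA-selected. Their counts were 0.908 to 3.53 times those of the members. The ratio was 1.16, 2.48 and 2.54 in Ctrl somas, 2.04, 1.42 and 0.967 in Ctrl neurites, 1.89, 3.51 and 1.43 in MG132 somas and 2.51, 0.908 and 3.53 in MG132 neurites. The ratio varied within each group, and the groups overlapped in every comparison. Ctrl neurites replicate 1 and MG132 neurites replicates 1 and 3 held the largest ribosomal shares.

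Some nuclear-encoded partners were also higher in neurites on the TMM scale, and fewer were on total counts. With TMM in Ctrl, 9 of 36 tested nuclear subunits of complex I, 3 of 8 of complex III, 7 of 14 of complex IV and 7 of 17 of complex V were called higher and none lower, where 10.2% of all genes were higher. In MG132 the counts were 20 of 36, 4 of 8, 7 of 14 and 11 of 17, again with none lower, where 11.4% of all genes were higher. Their median log2 differences in Ctrl ran from 0.41 for complex III to 0.83 for complex IV. On total counts 0, 0, 0 and 0 were called higher in Ctrl and 1 of complex III was lower, where 2.28% of all genes were higher and 19.3% lower. The medians on total counts were -0.017 for complex I, -0.25 for complex III, 0.13 for complex IV and 0.095 for complex V, so the direction of complexes I and III turned. In MG132 total counts called 2 of complex V higher and none of the other complexes, with 1 of complex III lower, where 2.11% of all genes were higher and 30.6% lower. The values of single genes that follow are on the TMM scale, and of the Ctrl differences given for these subunits and for Rexo2, a mitochondrial nuclease, none was called on total counts, where the log2 values ran from 0.094 for Rexo2 to 0.88 for Uqcrq. In complex I, Ndufa13 was at 58.7 ± 15.0 CPM (SD, n = 3) in Ctrl neurites and 22.5 ± 5.23 in Ctrl somas, a rise of 1.38 ± 0.22 (SE, adjusted p = 0.000544) by edgeR, and 25.6% of its windows were shared with another annotated gene. Uqcrq of complex III rose by 1.56 ± 0.30 (SE, adjusted p = 0.00204) in edgeR's fit. Cox8a and Cox6c of complex IV rose by 1.51 ± 0.23 (SE, adjusted p = 0.000333) and 1.24 ± 0.17 (SE, adjusted p = 0.000136), and Atp5e of complex V by 1.37 ± 0.25 (SE, adjusted p = 0.00145) in Ctrl and 2.37 ± 0.26 (SE, adjusted p = 2.42e-05) in MG132 (edgeR).

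Genes that maintain and read the mitochondrial genome were called in Ctrl neurites at shares near those of all genes or below them. Of the nuclear genes for mitochondrial DNA replication and transcription, 0 of 22 were called higher and 1 lower in Ctrl neurites, and of those for mitochondrial RNA processing 1 of 32 higher and 2 lower. Of the mitochondrial ribosomal proteins 7 of 77 were higher and 0 lower, and of the translation factors 0 of 14 in either direction, where 10.2% of all genes were higher and 4.65% lower. On total counts the Ctrl medians of these 4 lists were -0.75, -0.88, -0.27 and -0.57, with 2, 8, 2 and 1 genes called lower and 0 higher, where 19.3% of all genes were lower, and the medians of the ribosomal proteins and translation factors turned direction. Rexo2, a nuclease of short RNAs, rose by 0.75 ± 0.18 (SE, adjusted p = 0.0126) in Ctrl and by 1.72 ± 0.19 (SE, adjusted p = 2.13e-05) in MG132 (edgeR).

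Genes of mitochondrial RNA processing were among those called under MG132. In somas 8 of 32 were called higher and 1 lower, where 15.5% of all genes were called higher and 11.9% lower, and in neurites 13 of 32 were higher and 0 lower, where 14.7% were higher and 12.3% lower. Trmt10c, a subunit of the RNase P that frees tRNAs from the mitochondrial precursors, was at 47.2 ± 3.93 CPM (SD, n = 3) in MG132 somas and 10.6 ± 1.58 in Ctrl somas, and rose by 2.16 ± 0.25 (SE, adjusted p = 2.94e-05) in edgeR's test. In neurites it rose by 2.75 ± 0.26 (SE, adjusted p = 4.28e-06) (edgeR). Tbrg4, also known as FASTKD4, rose in somas by 1.64 ± 0.25 (SE, adjusted p = 0.000283), and Fastkd1 fell there with a log2 difference of -1.14 ± 0.39 (SE, adjusted p = 0.0414) (edgeR). Tfam, which packages mitochondrial DNA, rose in neurites by 1.05 ± 0.22 (SE, adjusted p = 0.00234) (edgeR). Of the mitochondrial ribosomal proteins, 7 of 77 were higher and 2 lower in somas, and 15 of 77 higher and 1 lower in neurites. On total counts 4 RNA processing genes were higher in somas and 7 in neurites, and 2 and 3 ribosomal proteins, where 7.56% of all genes were higher in somas and 6.63% in neurites. Fastkd1 (edgeR adjusted p = 0.114) and Tfam (edgeR adjusted p = 0.0640) then no longer passed the test.

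Some nuclear subunits of the complexes were called lower under MG132, in part no more often than genes in general. In somas 5 of 36 of complex I, 2 of 8 of complex III, 3 of 14 of complex IV and 6 of 17 of complex V were called lower and none higher, where 11.9% of all genes were lower. Complex I was near that share. In neurites 3, 0, 1 and 3 were lower, where 12.3% of all genes were, and complexes I, III and IV were below that share. Ndufb3 of complex I fell in somas with -1.21 ± 0.21 (SE, adjusted p = 0.000679), Cox7b of complex IV with -1.21 ± 0.23 (SE, adjusted p = 0.00144) and Atp5e of complex V with -1.32 ± 0.26 (SE, adjusted p = 0.00160) (edgeR log2 differences). On total counts 3, 1, 2 and 2 were lower in somas, where 7.31% of all genes were lower. In neurites 2, 0, 1 and 0 were lower, each complex below the 9.42% of all genes.

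Over the 12 libraries, the genes whose level most resembled the mean log2 CPM of the tested members were, of 10288 ranked, ND6 (Pearson r 0.992), Selenow (0.982), Ndufb8 (0.972), Cox6a1 (0.966) and Kif5a (0.965). Selenow encodes a small selenoprotein, Ndufb8 and Cox6a1 encode nuclear subunits of complexes I and IV, and Kif5a encodes a kinesin motor of neurons. These are descriptions over 12 libraries that share their group structure and their scaling. With the group means removed the values were 0.967 for ND6, 0.952 for Selenow, 0.845 for Ndufb8, 0.895 for Cox6a1 and 0.964 for Kif5a.

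Total counts per library ran from 4247610 to 22166347, with a median of 7841751, and TMM factors from 0.567 to 1.44. The most abundant gene, for which no symbol was matched, took 12.4 to 33.4% of counts. Scaling without it left 5 and 7 members called in Ctrl and MG132, where 15.5% and 18% of all genes were called in either direction.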

How the data were processed

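The series held gene-level count files for 12 polyA-selected RNA-seq libraries. Per the labels and the study's methods, the authors trimmed reads with Trimmomatic (0.38.0), aligned them as single reads to mm10 with STAR, counted them per gene with featureCounts (2.0.1) at default settings and compared groups with DESeq2 (2.11.40.7). The deposited values were raw counts per Entrez gene. Symbols came from RefSeq GRCm38.p6 (25275 of 27179 genes). Genes were filtered with filterByExpr (14185 kept), scaled by TMM and tested with edgeR 4.0.16 in R 4.3.3 as 4 group means over 12 libraries, with calls at an adjusted p under 0.05. A second fit used the summed counts of the members as library size. Alternatives were other scalings and filters, DESeq2 1.42.0, stricter thresholds, the replicate block and leaving out each library. Scripts were tested on simulated data. No pair of the 66 library pairs was identical.

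Replicate numbers come from the labels, which do not say what they share. Deviations from the group means correlated between same-numbered libraries at 0.0972 to 0.248, and every pair within each of the 4 comparisons of groups was over 0.1, so the numbers were taken to pair the samples there. The lowest value was between Ctrl neurites and MG132 somas, which were not compared. The members and gene lists were chosen with earlier results of these data known. Named genes were all members, the other mitochondrial rows, up to 2 called genes per list, comparison and direction above a 5 CPM mean floor, the 5 most alike genes and the most abundant gene. Windows were 75 bases, compared on both strands with GENCODE M21 transcripts. Copies outside annotated transcripts were not analysed here. Fold intervals come from the edgeR SE. Default featureCounts settings do not use strand.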

Additional observations from a re-analysis of the deposited data

How the results depend on the processing

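The rise of the members in neurites kept its direction in all 105 member values recomputed under the alternatives in Ctrl and all 105 in MG132, but its calls did not. Against 5 members called in Ctrl and 7 in MG132, total counts gave 0 and 0. An adjusted p under 0.01 gave 2 in Ctrl, the same with a change over 1.7-fold 2, and with a log2 change above 1.7, 0 in Ctrl and 0 in MG132. Leaving out 1 library at a time gave 2 to 6 members in Ctrl and 5 to 7 in MG132. With the replicate block, the paired analysis called 3 members in MG132 somas in place of 0, and 7 in place of 5 in Ctrl neurites, and changed no other count of members.

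Of the member values recomputed under the alternatives, 3 of 105 changed sign for MG132 in somas, 9 of 105 in neurites and 24 of 139 for the interaction. Leaving out 1 library gave, in somas, -0.38 to 0.080 for COX1, -0.63 to 0.017 for CYTB and -0.50 to 0.12 for ND4. In neurites it gave -0.41 to 0.086 for COX1, -0.51 to 0.19 for CYTB, -0.54 to 0.22 for ND1, -0.47 to 0.18 for ND2, -0.49 to 0.15 for ND4 and -0.44 to 0.11 for ND5. For the interaction it gave -0.26 to 0.28 for COX1, -0.21 to 0.54 for CYTB, -0.14 to 0.62 for ND1, -0.077 to 0.59 for ND2, -0.11 to 0.74 for ND3, -0.32 to 0.39 for ND4 and -0.17 to 0.46 for ND5. ND2 in neurites was 0.00842 without a count filter, and on total counts the interaction was -0.093 for COX1 and -0.035 for ND4. The causes were not tested. The planned order by genome-unique windows was not run, since no genome sequence was used here, and transcripts took its place as an alternative added after seeing the data. Counting depth limited ND3, at 16 to 140 counts per library.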
